A study of Homo sapiens with 8 samples.

Results

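RAB genes encode small GTPases that mark the membranes of the cell. A RAB protein switches between a GTP-bound form, which recruits effectors such as tethers and motor adaptors, and a GDP-bound form. Exchange factors load GTP, GTPase-activating proteins end the active state, and chaperones such as the RAB escort proteins and GDP dissociation inhibitors handle the prenylated GTPase. Different RAB proteins serve the ER and Golgi, endosomes, lysosomes, recycling routes, secretory granules and the cilium, so the family covers most steps of membrane traffic.

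The RAB genes were taken as those whose symbol in the peak lists consists of RAB, a number and at most 1 letter. This gave 62 of the 19767 genes named in the lists. Their transcripts were followed in an enhanced crosslinking and immunoprecipitation (eCLIP) experiment on A172, an established human glioma cell line with no genotype change or drug named in the labels. eCLIP freezes protein-RNA contacts with ultraviolet light, recovers 1 protein with its RNA, and sequences that RNA beside an input kept before the recovery. The cells had taken up 500 µM 4-thiouridine, a photoreactive uridine, for 3 h. The 8 samples form 4 groups of 2: immunoprecipitates (IP) and inputs for PTBP1, a splicing regulator that binds pyrimidine-rich RNA, and for IGF2BP2 (IMP2), an mRNA-binding protein of the cytoplasm. The values come from 4 peak lists, 1 for each IP library, so the inputs enter through the log2 ratio of IP to input that each peak carries. The labels do not say whether replicates came from separate cultures, so each p-value reflects only how the libraries vary, which may be technical. A peak number reflects the amount of transcript as well as binding, and these cannot be told apart in a list of peaks.

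The PTBP1 lists held 1481 and 1387 RAB peaks, and the IGF2BP2 lists held 938 and 859. Since the lists themselves held 600615, 538802, 362700 and 341305 peaks, RAB genes took between 0.247% and 0.259% of each. Peaks were present for 59, 58, 50 and 53 of the 62 genes, and 49 genes had peaks in all 4 lists. RAB33A, a Golgi-associated RAB, had no PTBP1 peak, and its 2 peaks were both in IGF2BP2 replicate 2. No IGF2BP2 peak was listed for 8 genes, RAB4B, RAB6C, RAB6D, RAB9B, RAB17, RAB38, RAB40A and RAB41. RAB6C and RAB6D are close copies of RAB6A, and how reads shared by them were placed is not given in the sources used here.

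Depth per peak was low and differed between the proteins. The reads behind a peak could be worked out from its log2 ratio and its p for 974 and 939 RAB peaks of PTBP1 and for 829 and 752 of IGF2BP2. The median was 10 and 8 IP reads in the PTBP1 replicates and 4 in both IGF2BP2 replicates. Peaks of 3 IP reads, the smallest number that the way of working out reads allowed, made up 14.3% and 16.0% of those with known reads for PTBP1. For IGF2BP2 they made up 30.5% and 31.8%. Of the RAB peaks of PTBP1 replicate 1, 53.5% (95% Wilson interval 51.0 to 56.1) overlapped a peak of replicate 2 on the same strand, and 56.8% (54.2 to 59.4) did in the other direction. For IGF2BP2 the shares were 45.2% (42.0 to 48.4) and 49.6% (46.3 to 52.9). These intervals cover counting error only. The same shares over all peaks of the lists were 55.6%, 61.5%, 48.2% and 51.6%. Among RAB peaks of at least 10 IP reads, 76.1% and 77.5% (PTBP1) and 83.2% and 88.2% (IGF2BP2) were found again.

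**Figure D1:**
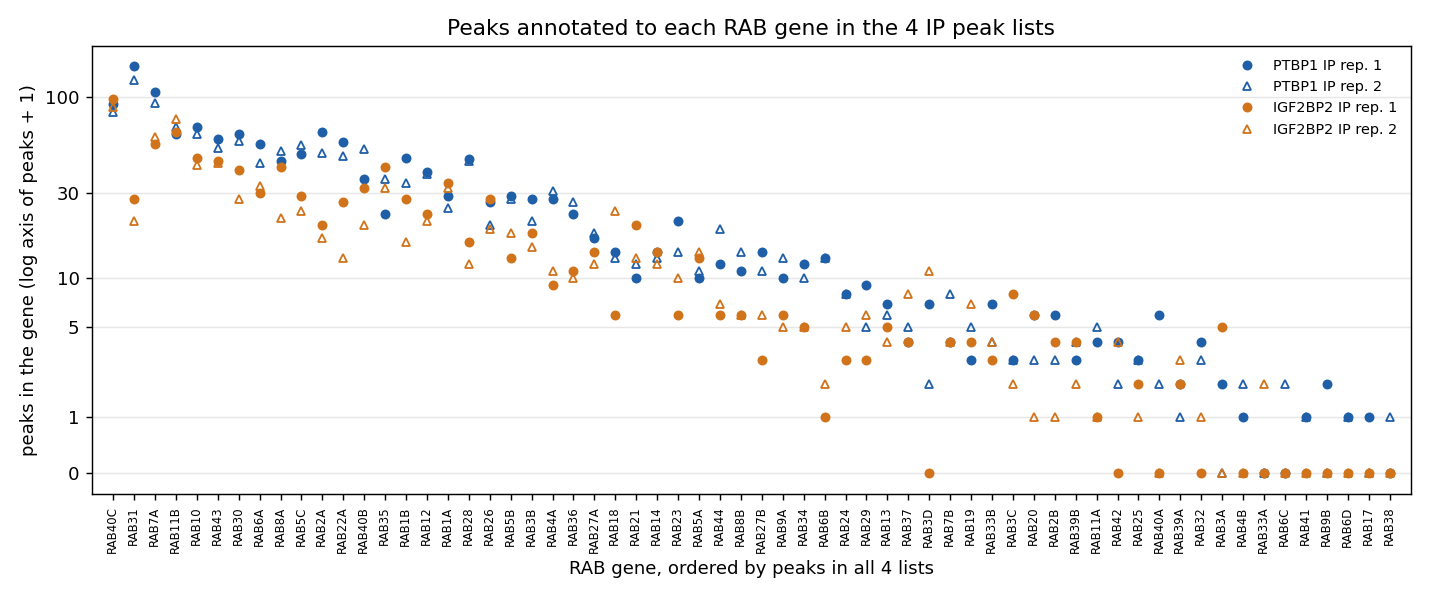
Peaks annotated to each of the 62 RAB genes in the 4 IP lists, on a log axis of peaks + 1, with genes ordered by their total. Blue marks PTBP1, orange IGF2BP2, filled circles replicate 1 and open triangles replicate 2. RAB40C has the highest total and RAB31 has 146 and 123 PTBP1 peaks against 28 and 21 of IGF2BP2.

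Peaks were concentrated in a few genes. The number per gene had a median of 11.5 and 12.5 in the PTBP1 lists and 6 and 7.5 in the IGF2BP2 lists, while the highest was 146 and 123 (RAB31) and 97 and 88 (RAB40C). The 5 genes with the most peaks, RAB40C, RAB31, RAB7A, RAB11B and RAB10, held 31.9% of all RAB peaks. Regions covered by overlapping peaks of both replicates, called reproducible regions here, numbered 743 in 47 RAB genes for PTBP1 and 386 in 41 for IGF2BP2. For PTBP1 the most were in RAB31 (66), RAB7A (61), RAB40C (56), RAB11B (36) and RAB2A (35). For IGF2BP2 they were in RAB40C (45), RAB11B (30), RAB7A (29), RAB43 (24) and RAB10 (21), a RAB of exocytic and recycling transport. RAB40C, RAB11B and RAB7A stood on both lists. Per length the order changed and depended on strand. Over both strands RAB11B had the most PTBP1 peaks per 10 kb of gene (46.9, mean of 2 lists) and the most of IGF2BP2 (50.1). Counting only peaks on the gene's own strand, RAB11B had 16.7 and 23.8 per 10 kb, and RAB26, a RAB of secretory granules, had the most for both proteins (39.0 each).

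IGF2BP2 peaks in RAB transcripts lay in 3′ UTRs more often than PTBP1 peaks, and PTBP1 peaks lay in coding sequence more often. The 3′ UTR held 113 and 101 RAB peaks of PTBP1 (7.63% and 7.28%) and 137 and 118 of IGF2BP2 (14.6% and 13.7%), a PTBP1 minus IGF2BP2 difference of -6.72 percentage points between means of 7.46% ± 0.25 and 14.2% ± 0.61 (SD, n = 2 libraries each). Coding sequence held 118 and 111 peaks of PTBP1 but 28 and 27 of IGF2BP2, which is 7.99% ± 0.02 against 3.06% ± 0.11 (SD, n = 2 each). Introns held most peaks of both proteins, 80.8% ± 0.69 for PTBP1 and 76.9% ± 0.06 for IGF2BP2 (SD, n = 2 each). In each of these regions the libraries of the 2 proteins did not overlap. A two-sided exact permutation test over 2 against 2 libraries cannot go below p = 0.333. Each of the 3 differences in RAB genes gave that value. Other genes had the same direction in coding sequence (means of 14.2% for PTBP1 and 9.76% for IGF2BP2) and in 3′ UTRs (3.40% and 7.07%). These contrasts between the proteins are therefore not particular to RAB genes. In introns the means of other genes were 78.4% and 78.8%.

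The 3′ UTR share in RAB genes was above that of all other genes in every library, by 4.31 and 3.80 points for PTBP1 and 7.64 and 6.56 points for IGF2BP2. Other genes had 3.40% ± 0.11 of PTBP1 peaks and 7.07% ± 0.15 of IGF2BP2 peaks in 3′ UTRs (SD, n = 2 each). The share in coding sequence was below that of other genes in every library, with differences of -6.13 and -6.38 points for PTBP1 and -6.74 and -6.65 for IGF2BP2. An exact permutation of the signs over the 4 libraries gave p = 0.125 for each, the smallest it allows, so neither could pass 0.05. The intron share was not on one side: it was above that of other genes for PTBP1 and below it for IGF2BP2 (p = 1 in the same exact permutation test). The lengths of UTRs and coding sequence in the RAB genes were not compared with those of other genes.

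The contrast grew with the number of reads. Among RAB peaks of at least 10 IP reads, 3′ UTRs held 58 of 119 (48.7%) and 50 of 110 (45.5%) for IGF2BP2, against 15.3% and 15.7% for other genes. The same selection gave 8.70% and 11.7% for PTBP1 in RAB genes, against 3.67% and 3.75% for other genes. RAB genes were thus above other genes for both proteins. Among RAB peaks whose reads could be worked out, the deepest followed this split. In both IGF2BP2 lists the deepest lay in the 3′ UTR of RAB5C, an early endosome RAB, with 69 and 59 IP reads against 5 and 6 input reads, followed by the 3′ UTR of RAB7A, the RAB of late endosomes and lysosomes. In both PTBP1 lists the deepest such peak lay in an intron of RAB40B with 164 and 136 IP reads. Its 63 and 57 input reads put it at a log2 ratio of only 1.08 and 1.18. A PTBP1 peak in the 3′ UTR of RAB30, described below, reached the −log10 p limit of 400 in both lists. Its reads could not be worked out, so it was not ranked, and the split holds only for ranked peaks. A minimum of 10 IP reads leaves out every peak whose reads could not be worked out, which includes peaks at or below input, so the selection is not equal between the proteins. It also takes in both strands, so a site with peaks on both, as in the 3′ UTR of RAB1B, can count more than once. The selection was not repeated on the gene's own strand alone. The deposited −log10 p was 0 for 443 and 393 RAB peaks of PTBP1 and for 101 and 99 of IGF2BP2.

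**Figure D2:**
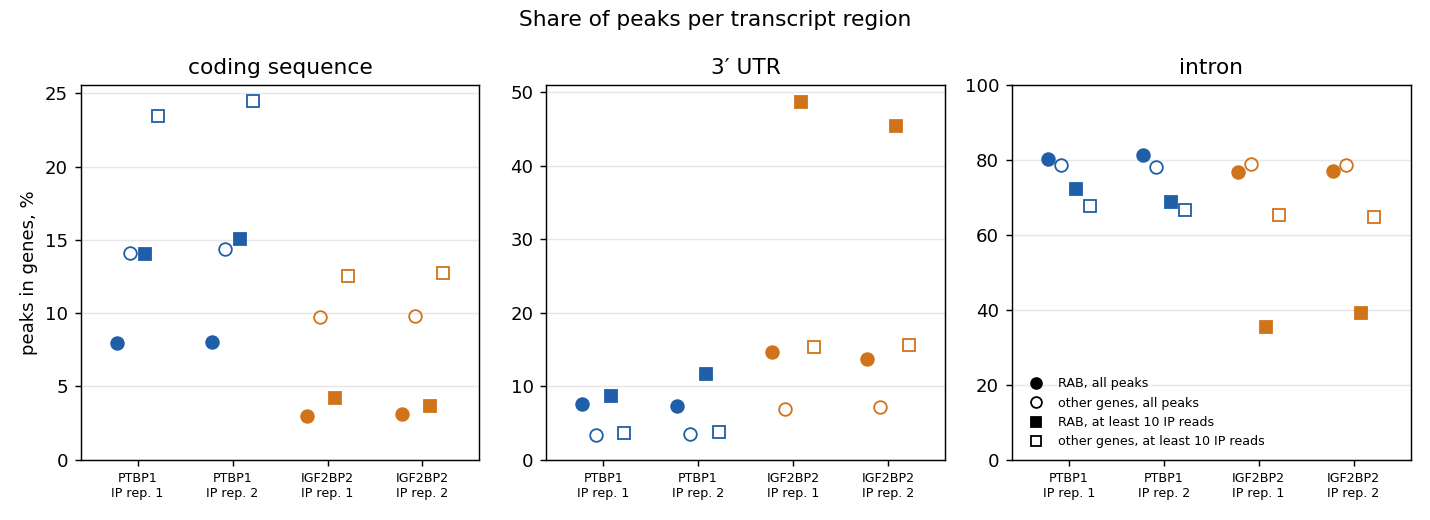
Share of gene peaks in coding sequence, 3′ UTR and intron (y axis, %) in each of the 4 IP libraries (x axis). Filled symbols are RAB genes, open symbols all other genes, circles all peaks and squares peaks of at least 10 IP reads. The filled orange squares in the 3′ UTR panel, at 48.7% and 45.5%, lie far above the open ones at 15.3% and 15.7%. The filled blue squares there, at 8.70% and 11.7%, also lie above the open ones, at 3.67% and 3.75%.

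To compare the proteins gene by gene, the peaks in a gene per 10000 peaks of the list were taken as its peak density on a log2 scale with a pseudocount of 0.5. The difference between PTBP1 and IGF2BP2 was tested with limma over the 15145 genes with at least 10 peaks in the 4 lists together. Of the RAB genes, 49 were tested and 13 had too few peaks. Because the PTBP1 lists are longer, a gene with the same number of peaks in all 4 lists has a difference of -0.69. Peak density was higher for PTBP1 in 4 RAB genes and higher for IGF2BP2 in 6 at an adjusted p under 0.05, and the other 39 did not pass. Of all genes tested 25% passed, 12.7% higher for PTBP1 and 12.3% higher for IGF2BP2, so the RAB share of 10 in 49 was near that of all genes. The median difference over the RAB genes was 0.07, against -0.01 over all genes, with 25 above 0 and 24 below.

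RAB31, a RAB of the trans-Golgi network and early endosomes, had the clearest excess of PTBP1 peaks. It had 146 and 123 PTBP1 peaks, of which 140 and 121 were intronic, and 28 and 21 IGF2BP2 peaks. Both PTBP1 libraries were far above both IGF2BP2 libraries, and the density difference was 1.75 ± 0.16 (log2, SE, n = 2 each, limma adjusted p = 0.0015). RAB6B, a form of RAB6 prominent in neurons, had 13 and 13 PTBP1 peaks against 1 and 2. Its difference was 2.11 ± 0.53 (limma adjusted p = 0.029) and rested on few IGF2BP2 peaks. With a pseudocount of 2 it was 1.42, below the 1.68 of RAB31, and by nucleotides covered it was 1.26 and no longer passed (limma adjusted p = 0.054). The 10 intronic peaks in each PTBP1 list had no counterpart for IGF2BP2, whose peaks in RAB6B were all in the 3′ UTR. RAB28, a RAB of the cilium, had 46 and 45 PTBP1 peaks against 16 and 12, a difference of 0.99 ± 0.21 (limma adjusted p = 0.018). RAB2A, which acts between the ER and Golgi, had 65 and 50 against 20 and 17, a difference of 0.91 ± 0.18 (limma adjusted p = 0.014). None of RAB31, RAB6B, RAB28 and RAB2A had a PTBP1 region enriched over input in both replicates, by the threshold given below. In RAB31 only 1 and 0 of the PTBP1 peaks passed that threshold, so these differences are in peak number and not in enrichment.

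On the IGF2BP2 side the differences ran from -0.77 to -1.23, and the raw peak numbers of several genes were alike between the proteins. RAB21, an endosomal RAB involved in integrin traffic, had 10 and 12 PTBP1 peaks and 20 and 13 IGF2BP2 peaks, a difference of -1.23 ± 0.33 (limma adjusted p = 0.034). Its 3′ UTR held 2 and 3 of the PTBP1 peaks but 8 and 6 of the IGF2BP2 peaks. RAB5A, which directs early endosome fusion, had 10 and 11 against 13 and 14 (-1.04 ± 0.31, limma adjusted p = 0.047). RAB35, a RAB of the plasma membrane and fast recycling, had 23 and 36 against 42 and 32 (-1.04 ± 0.28, limma adjusted p = 0.037), and the raw numbers of the 2 proteins overlap. RAB1A, which controls ER to Golgi transport, had 29 and 25 against 34 and 32 (-0.98 ± 0.18, limma adjusted p = 0.0097). RAB11B, a recycling endosome RAB, had 63 and 69 against 65 and 76 (-0.78 ± 0.16, limma adjusted p = 0.016). RAB40C, a RAB with a SOCS box that joins a ubiquitin ligase, had 92 and 83 against 97 and 88 (-0.77 ± 0.11, limma adjusted p = 0.0040). For RAB40C the peak numbers were nearly equal, and the difference in density lies close to the -0.69 that equal numbers give. For RAB11B this held only over both strands. On its own strand it had 22 and 25 PTBP1 peaks against 29 and 38 of IGF2BP2, a difference of -1.18 ± 0.23 (limma adjusted p = 0.012).

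Without PTBP1 replicate 1 only RAB31, RAB1A, RAB11B and RAB40C still passed, and without PTBP1 replicate 2 RAB2A and RAB35 passed as well, 6 in all. Over all genes, fewer were called with either PTBP1 library left out than in the main fit, and more with either IGF2BP2 library left out. Calls in these fits therefore say little about the RAB genes themselves. All 10 kept their direction in each of them. Without IGF2BP2 replicate 1 and 2, RAB31 was at 1.91 and 1.59 and RAB40C at -0.75 and -0.80. With peaks of at least 10 IP reads 23 RAB genes could be tested, among them 6 of the 10, and RAB28 was the only one of these that passed (2.15, limma adjusted p = 0.036). Of those 23, 7 passed, 3 higher for PTBP1 and 4 for IGF2BP2, and all but RAB28 were outside the 10. RAB31 (2.18), RAB2A (0.78), RAB35 (-1.25) and RAB40C (-0.49) kept their direction, RAB11B turned to 0.75 ± 0.46 (limma adjusted p = 0.23), and the median over all genes moved to 0.64. With enriched peaks alone 8 RAB genes could be tested, and RAB11B was the 1 that passed (-2.81 ± 0.41, limma adjusted p = 0.0045). It had 0 and 0 enriched PTBP1 peaks against 6 and 7 of IGF2BP2, so the size depends on the pseudocount. RAB40C turned to 0.40 ± 0.33 (limma adjusted p = 0.36).

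**Figure D3:**
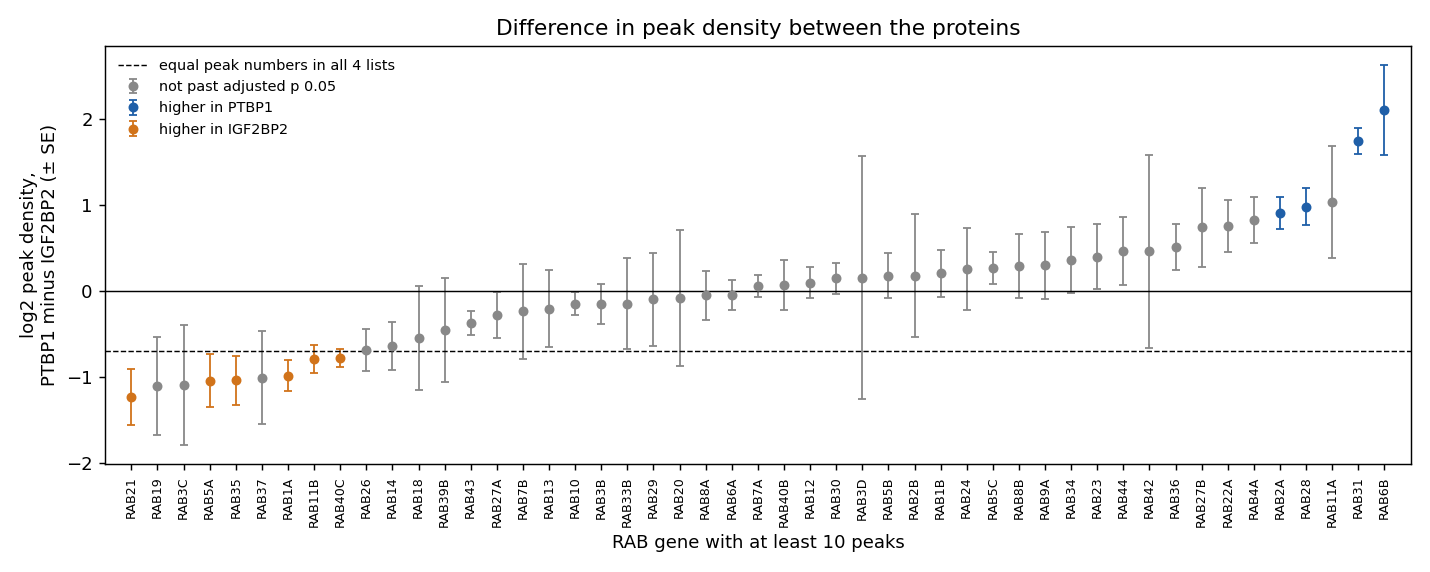
Log2 peak density of PTBP1 minus IGF2BP2 with its SE for the 49 RAB genes tested, ordered by value. Blue and orange points passed the limma adjusted p of 0.05, grey points did not, and the dashed line at -0.69 marks equal peak numbers in the lists. RAB31 and RAB6B lie highest, and the 6 orange points lie below the dashed line.

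By role, the called genes were spread over 5 of the 8 groups. Of 10 tested genes of the ER, Golgi and secretory pathway, 2 were higher for PTBP1 (RAB6B, RAB2A) and 1 for IGF2BP2 (RAB1A). Of 7 early endosome genes, 1 was higher for PTBP1 (RAB31) and 2 for IGF2BP2 (RAB21, RAB5A). Recycling and plasma membrane RABs had 2 of 9 higher for IGF2BP2, the SOCS-box RABs 1 of 2, and the cilium group 1 of 3 higher for PTBP1. None of the 7 regulated secretion genes tested, such as RAB3B and RAB27A, and none of the 5 of late endosome, lysosome and autophagosome passed. With 25% of all genes called, groups of this size hold few calls, and differences between roles were not tested. RAB7A of that last group had 106 and 93 PTBP1 peaks and 56 and 61 of IGF2BP2, a density difference of 0.07 ± 0.13 (limma adjusted p = 0.73).

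Enrichment over input picks out the sites where a protein's own IP exceeds its background. A peak was called enriched at a log2 ratio and a −log10 p of at least 3 on a scale common to all chromosomes. In reads, the log2 threshold stands for 9.87 and 8.44 IP reads per input read in the PTBP1 lists and 2.40 and 2.14 in the IGF2BP2 lists, so the threshold is lower in reads for IGF2BP2 and the counts are set side by side without a test. Of the RAB peaks, 32 and 26 of PTBP1 (2.16% and 1.87%, against 2.94% and 2.84% of the whole lists) and 102 and 81 of IGF2BP2 (10.9% and 9.43%, against 9.20% and 9.36%) were enriched. Regions enriched in both replicates numbered 11 of 743 in 7 RAB genes for PTBP1 and 24 of 386 in 14 RAB genes for IGF2BP2. Over all genes 2.33% and 5.95% of reproducible regions were enriched, and 14% and 19.4% of genes had one. The RAB shares, 1.48% and 6.22% of regions and 11.3% and 22.6% of genes, were near these. The numbers depend on the threshold: at 2 they were 32 and 69 regions, and at 4 they were 2 and 9.

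The PTBP1 regions lay mostly in introns and the IGF2BP2 regions mostly in 3′ UTRs. Of the 11 PTBP1 regions, 9 were intronic, all within the first 48.3% of the gene's length from its start, and 2 were in coding sequence, in RAB7A and RAB12. They fell in RAB30 (2), RAB7A (2), RAB40C (2), RAB5C (2), RAB22A, RAB4A and RAB12 (1 each). Of the 24 IGF2BP2 regions, 17 were in 3′ UTRs of 11 genes, 6 in introns and 1 in a non-coding exon of RAB36. They fell in RAB7A (3), RAB1A, RAB1B, RAB5B, RAB8A, RAB14, RAB30, RAB40C and RAB43 (2 each), and RAB5C, RAB21, RAB22A, RAB35 and RAB36 (1 each). Of the 17 in 3′ UTRs, 9 ended within 1 kb of the end of the RefSeq gene.

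**Figure D4:**
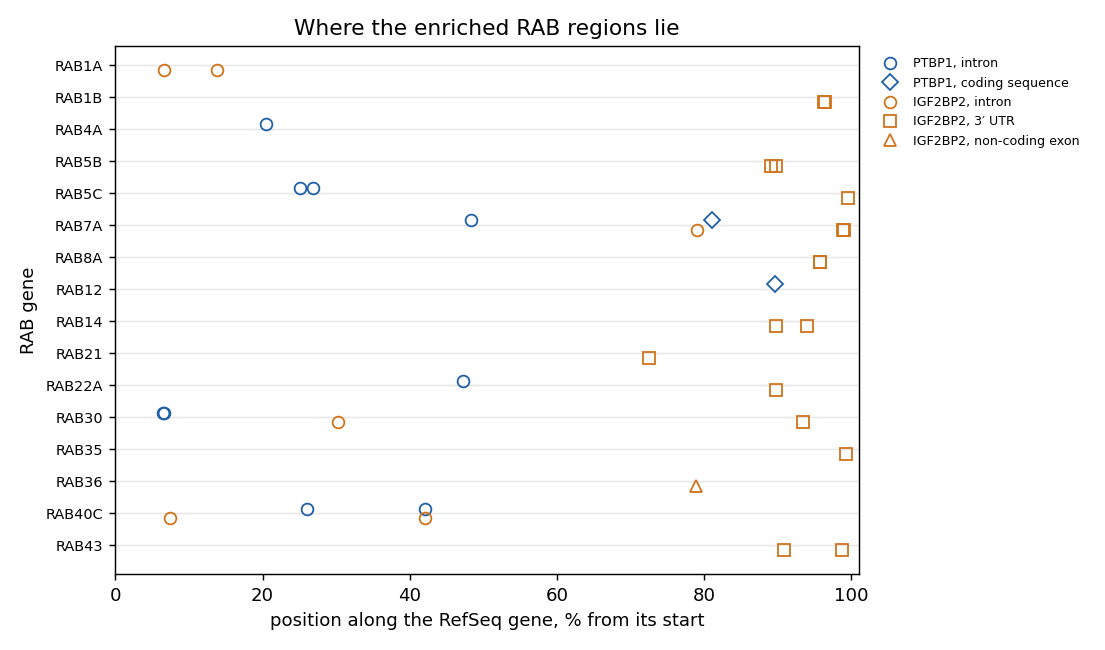
Position of each region enriched in both replicates, as a percentage of the RefSeq gene from its start (x axis), for the 16 RAB genes that have one (y axis). Blue marks PTBP1, orange IGF2BP2, and the symbol gives the transcript region. The PTBP1 introns lie between 6.5% and 48.3% of the gene, and the IGF2BP2 3′ UTR regions between 72.6% and 99.6%.

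Each region is given by its peak of highest log2 ratio in each replicate. The PTBP1 regions for which that peak had at least 20 IP reads in both replicates were 5. RAB30, a Golgi RAB, held 2 adjoining ones in its intron on chromosome 11, minus strand (hg38 chr11:83065309-83065439 and chr11:83065440-83065511). The first had 54 IP reads to 1 input read and 45 to 3, at log2 ratios of 5.45 and 3.83. The second had 46 to 1 and 45 to 5, at 5.22 and 3.09, so replicate 1 was higher in both. In RAB40C an intronic region on the plus strand (chr16:599695-599787) had 22 and 26 IP reads to 1 input read in each replicate, at 4.16 and 4.62. In RAB5C an intronic region on the minus strand (chr17:42146891-42147003) had 54 reads to 4 and 24 to 1, at 3.45 and 4.51. In RAB4A, an early and recycling endosome RAB, the region (chr1:229278190-229278301, plus strand) had 29 to 1 and 20 to 2, at 4.56 and 3.25. An input of 1 read was the lowest value that the way of working out reads could return, and a ratio over it may move by much with 1 further read. Of the 11 regions, 5 had it in both replicates.

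For IGF2BP2 the 5 regions chosen in the same way were all in 3′ UTRs. RAB14, which acts between endosomes and the Golgi, had the highest mean log2 ratio (6.03), with 5.20 and 6.86 in the replicates, from 33 IP reads to 3 and 31 to 1 (chr9:121179548-121179594, minus strand). RAB5C had 69 reads to 5 and 59 to 6, at 5.53 and 5.20, in a region whose end lies 90 nt from the gene end (chr17:42125069-42125115, minus strand). RAB7A had 61 to 16 and 46 to 17, at 3.67 and 3.34 (chr3:128813837-128813898, plus strand), and a second enriched region began at the next nucleotide. RAB35 had 28 to 9 and 26 to 12, at 3.38 and 3.02, 136 nt from the gene end (chr12:120095235-120095286, minus strand). The remaining one was annotated to RAB1B but lay on the minus strand, opposite to the gene (chr11:66277140-66277225), with 53 to 10 and 45 to 7. It overlapped the enriched region on the gene's own strand (chr11:66277113-66277206). That one had 45 to 7 in replicate 2 as well, and in replicate 1 its peak of highest ratio had 18 reads to 1, which kept it out of the 5, while another of its peaks had 41 to 10. The 2 regions of RAB8A, a RAB of polarised exocytosis, mirrored each other in the same way, with equal reads on both strands in both replicates.

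**Figure D5:**
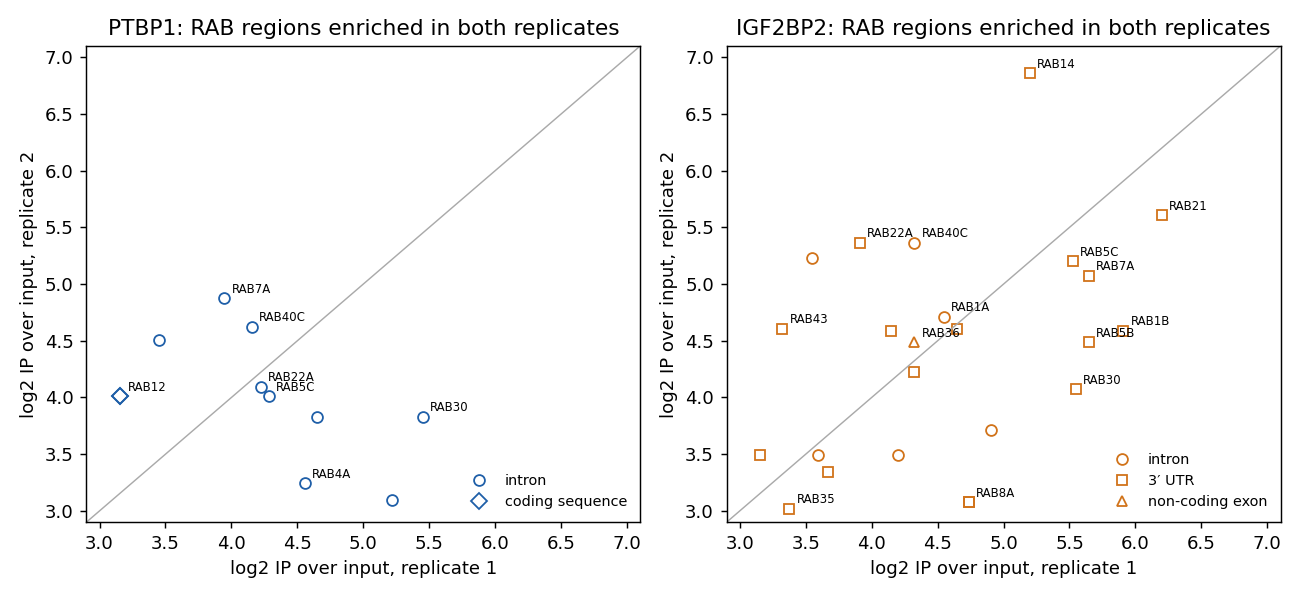
Log2 ratio of IP over input in replicate 1 (x axis) against replicate 2 (y axis) for the 11 PTBP1 and 24 IGF2BP2 RAB regions enriched in both replicates, with a line of equal values and the highest region of each gene named. The symbol gives the transcript region. RAB14 and RAB21 have the highest means for IGF2BP2, and RAB30 lies lower in replicate 2 than in replicate 1 for PTBP1.

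Such mirrored peaks were common in 3 genes. Where the gene's strand was known, 106 and 103 RAB peaks of PTBP1 and 82 and 61 of IGF2BP2 lay on the opposite strand, between 7.17% and 8.78% of RAB peaks, against 6.79% to 6.99% over the lists. RAB11B, RAB1B and RAB8A held 83, 82, 69 and 52 of them. Of the opposite-strand RAB peaks, 61.3% and 68.0% (PTBP1) and 79.3% and 82.0% (IGF2BP2) overlapped a peak on the gene's own strand in the same list. In RAB11B 41, 44, 36 and 38 of its 63, 69, 65 and 76 peaks lay on the opposite strand. On the gene's strand alone the same 10 RAB genes passed the density test, and the IGF2BP2 regions fell from 24 to 22 in the same number of genes.

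RAB30, RAB7A, RAB40C, RAB5C and RAB22A had an enriched region of both proteins, out of 16 RAB genes with a region of either. In all but RAB40C the enriched regions of the 2 proteins did not overlap. RAB5C had PTBP1 in introns and IGF2BP2 at the 3′ end. RAB7A and RAB30 also had an intronic IGF2BP2 region, and RAB7A a PTBP1 region in coding sequence. The IGF2BP2 3′ UTR regions of RAB5C, RAB7A and RAB22A overlapped reproducible PTBP1 regions that were not enriched. Of the enriched regions, 10 of 24 of IGF2BP2 and 2 of 11 of PTBP1 overlapped a reproducible region of the other protein. In RAB40C 1 intronic site was enriched for both (PTBP1 chr16:606121-606226, IGF2BP2 chr16:606156-606181). It had 31 and 15 PTBP1 IP reads to 1 input read (log2 4.65 and 3.83), and 6 and 11 IGF2BP2 IP reads to 1 (4.32 and 5.36). Of all reproducible RAB regions, 152 of 743 of PTBP1 (20.5%) overlapped one of IGF2BP2, and 161 of 386 of IGF2BP2 (41.7%) overlapped one of PTBP1, near the 19.9% and 39.6% of all regions.

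1 RAB site differed sharply between the proteins at much greater depth, and it was singled out after its values were seen. A 42 nt peak in the 3′ UTR of RAB30 (chr11:82980817-82980858, minus strand) was the only RAB peak at the limit of 400 that the deposited −log10 p reaches, and it was so in both PTBP1 lists. Its log2 ratios were 2.78 and 3.15, so replicate 1 stayed under the threshold of 3 and the site is not among the 11 regions. The IGF2BP2 lists held a peak there too, at -1.55 and -0.81, below input in both replicates.

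Sequence could be read only where a peak overlapped the first 50 nt of a gene in the RefSeq promoter table (GRCh38.p14), which held 50 of the 62 genes. The 7 stretches covered by peaks of both replicates are shown, because they are those whose letters the reference gives and because PTBP1 is known for pyrimidine-rich sites. Each ends at nucleotide 50 at the latest and is cut to its first 30 nt, so a shared stretch may reach further than the letters shown.

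RAB7A, PTBP1, chr3:128726186-128726215, plus strand: cttggccataaagcctgaggcggcggcagc

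RAB6A, PTBP1, chr11:73761025-73761047, minus strand: cggcagctgtggaagctcaggcg

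RAB31, PTBP1, chr18:9708328-9708350, plus strand: cgagagacgccggcggggcgcgg

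RAB8A, PTBP1, chr19:16111928-16111938, plus strand: caagctgctgc

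RAB6A, IGF2BP2, chr11:73761035-73761058, minus strand: tgcggcggcggcggcagctgtgga

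RAB10, IGF2BP2, chr2:26034114-26034133, plus strand: gggcacggggaaaaggtggc

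RAB22A, IGF2BP2, chr20:58309758-58309761, plus strand: ccgg

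None of these is enriched in both replicates. The letters were searched on the gene's strand for the PTBP1 core motif TCTT, and nothing is in capitals because none holds it. In the first 50 nt, 16.0% of all 35116 table entries and 6 of the 50 RAB genes (12%) held it. Pyrimidines made up 43.3% of the PTBP1 stretch in RAB7A, 39.1% in RAB6A, 30.4% in RAB31 and 54.5% in RAB8A, on both sides of the 48.2% in the first 50 nt of all entries. For IGF2BP2 they made up 37.5% in RAB6A, 20% in RAB10 and 50% of the 4 nt in RAB22A. The log2 ratios were near 0 for the RAB7A stretch (0.13 and 0.02, from 35 IP reads to 26 and 31 to 29) and below 0 for that of RAB6A under PTBP1 (-0.77 and -1.35). They were 0.61 and 0.34 in RAB31 and 0.90 and -0.36 in RAB8A. For IGF2BP2 they were 1.55 and 1.32 in RAB6A, 2.74 and 1.03 in RAB10, and 1.74 and 3.23 in RAB22A. In all, 20 RAB genes had a peak within the first 50 nt in at least 1 list.

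The regulators and effectors of RAB proteins were read from a list of 87 genes, all of them present in the peak lists and 85 with enough peaks. Peak density was higher for PTBP1 in 21 and for IGF2BP2 in 11, and 53 did not pass, where 12.7% and 12.3% of all genes passed in these directions. The median difference was 0.19, against -0.01 over all genes. Among 28 exchange factors 9 were higher for PTBP1 and 7 for IGF2BP2. Among 35 effectors the numbers were 9 and 2, among 16 tested GTPase-activating proteins 3 and 2, and among the 6 tested chaperone and prenylation genes none. RAB3GAP1 and RAB3GAP2, by name parts of a RAB3 GTPase-activating protein, were counted as exchange factors. Both were higher for PTBP1 (0.59 and 0.86, limma adjusted p = 0.039 and 0.011), so the numbers of these 2 classes depend on that choice. The 3 genes with the largest fitted differences for PTBP1 included SYTL5, a RAB27 effector with 4 and 7 PTBP1 peaks and none of IGF2BP2. Its fitted 2.85 ± 0.82 (limma adjusted p = 0.044) is set by the pseudocount and gives it no rank. The others were OCRL, an inositol phosphatase that binds RAB proteins (20 and 11 against 1 and 1, 2.66 ± 0.52, limma adjusted p = 0.013), and RAB3IP, the exchange factor Rabin8 for RAB8 (13 and 13 against 1 and 1, 2.48 ± 0.51, limma adjusted p = 0.015). For IGF2BP2 they were in SBF1 (48 and 34 against 66 and 60, -1.33 ± 0.16, limma adjusted p = 0.0029), MON1B, of the complex that activates RAB7 (12 and 12 against 17 and 18, -1.22 ± 0.27, limma adjusted p = 0.019), and DENND4B, of the DENN exchange factors (31 and 37 against 53 and 36, -1.06 ± 0.23, limma adjusted p = 0.017). A region enriched in both replicates was present in 20 of the 87 genes for PTBP1 (23.0%) and in 33 for IGF2BP2 (37.9%), against 14% and 19.4% of all genes, many of which have few peaks. The GTPase-activating proteins had one in 3 of 17 genes for PTBP1 and in 11 of 17 for IGF2BP2, and the exchange factors in 10 and 9 of 28. Here too RAB3GAP1 and RAB3GAP2 count as exchange factors, each with 2 PTBP1 regions, and RAB3GAP1 also with 2 of IGF2BP2.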

How the data were processed

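Peak lists of the 4 IP libraries (2 per protein) were used. The submitters' processing notes name HISAT2 and hg38, with the peak caller, annotation and filters not given in the sources used here. Per the file headers, each peak has a position, strand, gene, region and overlap length, and a −log10 p, which the authors deposited with a limit of 400. The column headed Count holds log2 values of IP over input as deposited, shifted by a constant per chromosome. That constant was taken from the commonest value, read as 3 IP reads to 1 input read, and the exact binomial p of that pair matched on 24 of 24 chromosomes in each library. IP and input reads were recovered where ratio and p fitted within 1%, for 99.96% to 99.97% of the eligible peaks, which are those with a −log10 p from 0.1 up to the limit and a deposited ratio not below 0. Over all peaks this is 70.6% and 73.7% for PTBP1 and 86.8% and 87.6% for IGF2BP2, and peaks without recovered reads are left out wherever a minimum of reads is set. Ratios were put on the library's median constant. Deposited overlap lengths, a score per peak, were not used for results. Whether an input of 0 was raised to 1 is not stated.

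Peak density was log2 of peaks plus 0.5 per 10000 peaks, tested with limma 3.58.1 (R 4.3.3, trend), Benjamini-Hochberg adjusted over all 15145 genes. The fit was also run on lists simulated with known changes, and no result given here rests on that run. Strand came from RefSeq for 50 RAB genes and from at least 90% of the peaks for 11. Replicate numbers did not pair the libraries (r = -0.0016 over genes). RAB genes were named if they had a region enriched in both replicates, passed the density test (up to 8 per direction), were among the 5 with most reproducible regions, or had no peak for a protein; of the regulators, the 3 largest per direction. Members and lists were chosen with earlier results of these data known.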

Additional observations from a re-analysis of the deposited data

How the results depend on the processing

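The 10 RAB genes with different peak density (4 higher for PTBP1, 6 for IGF2BP2) all kept their direction when 1 library was left out, but not all stayed past the threshold. The number of calls depended strongly on which library was left out, among RAB genes as over all genes. Leaving out 1 library leaves a protein with 1 sample, assumed to vary like the other. With no filter on low peak counts 4 and 3 passed, and with TMM scaling 5 and 4. With enriched peaks alone, an alternative added after the data were seen, 0 and 1 of 8 tested passed. RAB11B was the 1 that passed (-2.81), and RAB40C turned to 0.40. With peaks of at least 10 IP reads 3 and 4 of 23 tested passed, with only 1 of the 10 among them, and RAB11B turned to 0.75. The replicate block, although the labels do not say that equal numbers mark a pair, gave 13 genes (6 and 7), the same 10 among them. Of 118 repeats over the 10 genes, 96 stayed on their side of the threshold, 20 lost the call and 2 turned direction. The cause was not tested.

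The 11 enriched PTBP1 regions in 7 RAB genes became 32 in 18 at a threshold of 2, 2 in 2 at 4, and 17 with the ratios as deposited. With 1 replicate alone, single enriched peaks were counted without need of the other replicate, a different unit. These were 26 to 32 in 12 to 14 genes. The 24 IGF2BP2 regions in 14 genes became 69 in 25 at a threshold of 2 and 9 in 7 at 4. Single enriched peaks of 1 replicate were 81 to 102 in 24 to 27 genes. The mean share of peaks found again, 55.2% for PTBP1, was 52.3% with an overlap of 50% of the shorter peak and 76.8% with at least 10 IP reads, where that of IGF2BP2 rose from 47.4% to 85.7%. The differences in region share kept their direction under every alternative run. Depth limits the small peaks: of those with 3 IP reads, between 10.7% and 29.3% were found again.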
